A study of Homo sapiens with 6 samples.

Results

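The genes described here encode the molecules that display peptides to T cells and the type I interferons that increase that display. They are HLA-B, HLA-C and HLA-E (MHC class I), HLA-DRA and HLA-DRB1 (MHC class II), TAP1, B2M, IFNB1 and IFNA1, 9 of the 63827 genes that the annotation places on the 22 autosomes and chromosome X. The rule that defines them uses gene names and positions and no compartment score. The measurement taken for each was the score of the 100 Kb bin that overlaps the gene body, with 10 bins on either side. All 9 gene bodies lay within 1 bin each, and the 4 windows held 91 different bins of 30376 in the genome. All 91 were among the 27898 bins with a score in all 6 libraries.

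The cells were T47D, an established breast cancer line that carries the estrogen receptor and that the labels class as breast epithelial. Parental cells were starved of hormone for 72 h and collected without E2 (β-estradiol; T0) or after 100 nM E2 for 1, 4, 16 and 24 h (T1, T4, T16, T24), and tamoxifen-resistant T47D cells (TamR) formed the sixth condition. The TamR label reads untreated, whereas the study's methods describe TamR cells grown with 100 nM tamoxifen in medium without phenol red, in which the serum had been stripped of hormone with charcoal, as for starvation. TCC, a Hi-C method with ligation on a solid surface after HindIII digestion, counts contacts between genomic regions. With 1 library per condition, no difference between conditions could be set against replicates, and no test between conditions was made. Whether cultures were pooled into a T47D library is not stated. Since TCC measures no RNA, the identity of the cells could not be checked against expressed markers.

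For each bin the authors deposited the first eigenvector of the interchromosomal contact matrix, which is positive in compartment A (active chromatin) and negative in compartment B (inactive chromatin). Scores are given here multiplied by 1000. They are scaled within each library, with squares summing to 0.998 to 0.999, so a score is a position relative to the other bins of that library and not an amount of contact. The files hold no contact counts, so their depth is unknown here. The TamR library stood apart from the other 5, with a correlation across bins of 0.894 to 0.901 with each of them against 0.985 to 0.996 among the parental libraries. The 95th percentile of the scores was 10.78 in TamR and 11.07 to 11.79 in the parental libraries. T24 also differed from the other parental libraries, with a median score of -1.08 against -0.73 to -0.56. Differences from T0 to the E2 libraries and from T0 to TamR share the T0 library.

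MHC class I molecules carry peptides from inside the cell to its surface, where CD8+ T cells read them, and B2M is the light chain without which most class I molecules are not stably displayed. MHC class II molecules present peptides from outside the cell to CD4+ T cells and are made mainly by specialized antigen-presenting cells, although interferon gamma can induce them in epithelial tumours. TAP1 forms with TAP2 the pump that moves peptides to class I molecules. The type I interferons are secreted on viral sensing and raise class I display in neighbouring cells, and most of their genes sit in 1 cluster on chromosome 9 that is silent in most resting cells.

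The promoters of these genes differ widely in base composition. Of the 9 genes, 7 had a promoter in the RefSeq table (GRCh38.p14), and each was located by 1 exact match in GRCh37. The windows shown are the 150 bases before the RefSeq start, 5′ to 3′ on the strand of the gene, with each CpG in capitals, for a class I gene, its light chain and the interferon genes.
HLA-B (chr6:31324957-31325106, minus strand): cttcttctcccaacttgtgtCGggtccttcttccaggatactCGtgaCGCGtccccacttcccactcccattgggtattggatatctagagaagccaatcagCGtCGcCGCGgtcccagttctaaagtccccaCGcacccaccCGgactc
B2M (chr15:45003565-45003714, plus strand): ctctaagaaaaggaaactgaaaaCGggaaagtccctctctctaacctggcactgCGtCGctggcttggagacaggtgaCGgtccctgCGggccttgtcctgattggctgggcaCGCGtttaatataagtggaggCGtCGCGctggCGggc
IFNB1 (chr9:21077942-21078091, minus strand): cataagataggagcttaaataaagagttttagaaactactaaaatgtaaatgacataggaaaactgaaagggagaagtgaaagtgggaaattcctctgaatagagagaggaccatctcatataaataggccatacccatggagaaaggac
IFNA1 (chr9:21440288-21440437, plus strand): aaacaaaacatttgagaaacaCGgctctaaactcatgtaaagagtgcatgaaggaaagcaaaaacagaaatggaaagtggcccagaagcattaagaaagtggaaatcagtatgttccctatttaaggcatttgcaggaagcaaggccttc
Over the full 300 bases (250 before and 50 after the start) HLA-B and B2M each held 22 CpGs, IFNB1 held 1 and IFNA1 held 2, and the median over 35116 promoters was 14. HLA-C with 19 and TAP1 with 22 stood on the side of HLA-B, while HLA-DRB1, in compartment A like them, held 1 CpG. The second RefSeq start of TAP1 held 11. The letters GAAA, any 2 bases and GAAA again, as in interferon response elements, were looked for on both strands and found in 3.57% of all promoters of this length. They occurred 2 times in TAP1 at its first start, 2 times in B2M, 1 time in IFNA1, and not in HLA-B, HLA-C, HLA-DRB1 or IFNB1, where the absence concerns these letters in these 300 bases only. HLA-E and HLA-DRA were not matched.

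The 7 MHC and antigen-presentation genes were in compartment A in all 6 libraries, and the 2 interferon genes were in B in all 5 parental libraries. The highest mean of the parental libraries was that of TAP1 at 13.85 (SD 0.41 over the 5 conditions, which are not replicates), followed by HLA-C at 12.60 (0.46), HLA-B at 12.38 (0.69), HLA-DRB1 at 12.01 (0.77), HLA-E at 11.63 (0.33) and HLA-DRA at 11.20 (0.44). B2M lay lower at 5.81 (0.25), IFNB1 just under the border at -1.57 (0.52), and IFNA1 deeper in B at -4.89 (0.31). From HLA-C to HLA-DRA each neighbour in this order overlapped the next in its range over the parental libraries. TAP1 cleared HLA-C by 0.10, and the ranges of HLA-DRA and B2M, of B2M and IFNB1 and of IFNB1 and IFNA1 were apart by 4.58, 6.40 and 2.32. In TamR the order was the same from HLA-DRB1 downwards, and HLA-B moved from the third place to the first.

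**Figure D1:**
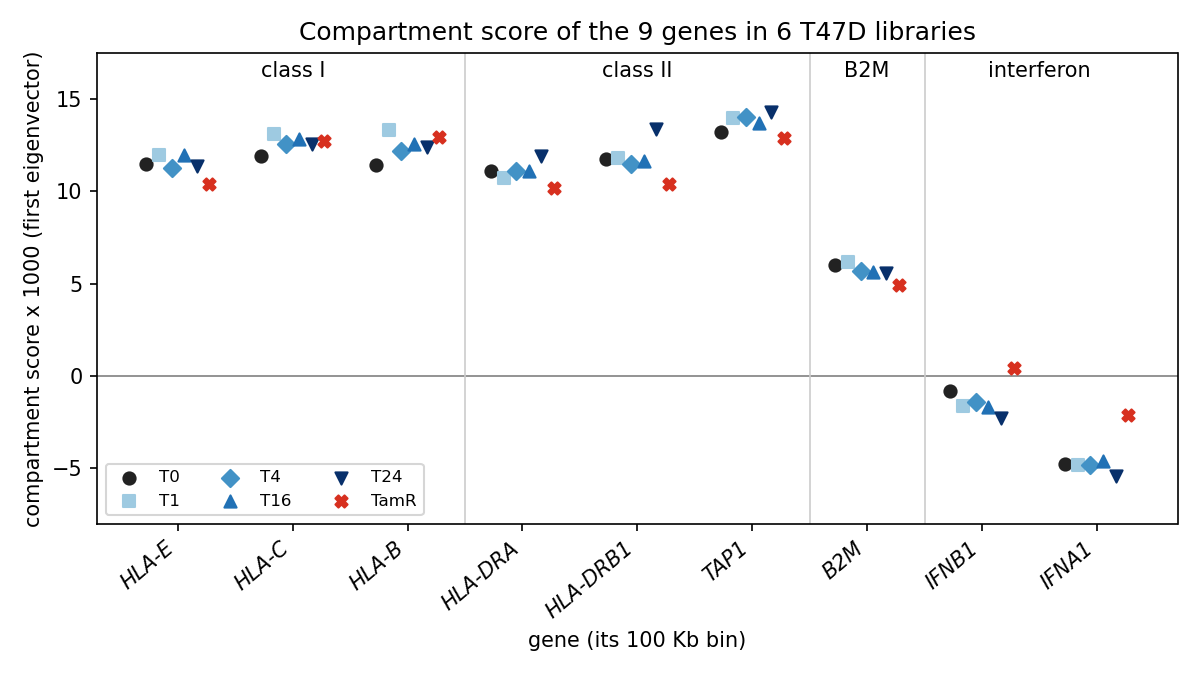
Compartment score (first eigenvector, multiplied by 1000) of the bin of each of the 9 genes, with 1 point per library. The 6 MHC genes on chromosome 6 lie between 10.18 and 14.30, B2M between 4.91 and 6.15, and the red TamR point is above the 5 parental points in IFNB1 and IFNA1 alone.

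HLA-B (ENSG00000234745.14_11, chr6:31321649-31334844, minus strand) and HLA-C (ENSG00000204525.18_13, chr6:31236526-31239907, minus strand) encode classical class I heavy chains, and their bins adjoin. HLA-B scored 11.42 at T0, 13.32 at T1, 12.17 at T4, 12.58 at T16, 12.40 at T24 and 12.93 in TamR. HLA-C scored 11.90 at T0, 13.13 at T1, 12.56 at T4, 12.83 at T16, 12.59 at T24 and 12.73 in TamR. In both genes T0 was the lowest of the 6 libraries and T1 the highest, and TamR lay inside the parental range. The mean of the 4 E2 libraries exceeded T0 by 1.20 in HLA-B, a difference at percentile 95.7 of all scored bins, and by 0.88 in HLA-C, at percentile 90.9. TamR exceeded T0 by 1.50 and 0.84, at percentiles 76.5 and 68.5. As ranks within a library the picture differed, since TamR placed HLA-B at percentile 98.3 against 95.6 to 97.8 in the parental libraries, and HLA-C at 98.1 against 96.1 to 97.5.

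HLA-E (ENSG00000204592.9_6, chr6:30457286-30461971, plus strand) encodes a non-classical class I molecule that is read by receptors of NK cells. Its scores were 11.50, 11.99, 11.28, 11.99 and 11.40 from T0 to T24 and 10.38 in TamR. The parental libraries spanned 0.71 and TamR lay below all of them by more than that range, as it did in 23.0% of all bins. The difference of TamR from T0 was -1.12, at percentile 33.4 of all bins, and the mean over E2 was 0.16 above T0, or 0.05 without T1 and 0.06 without T16. HLA-E thus differed from HLA-B and HLA-C in the direction of the TamR value, on the scale of scores and by rank (94.1 in TamR, 94.4 to 96.2 in the parental libraries).

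HLA-DRA (ENSG00000204287.14_6, chr6:32407655-32412823, plus strand) encodes the alpha chain of HLA-DR, and HLA-DRB1 (ENSG00000196126.12_10, chr6:32545679-32557625, minus strand) the main beta chain that pairs with it. HLA-DRA scored 11.12 at T0, 10.73 at T1, 11.13 at T4, 11.10 at T16, 11.93 at T24 and 10.18 in TamR. HLA-DRB1 scored 11.73 at T0, 11.79 at T1, 11.51 at T4, 11.65 at T16, 13.37 at T24 and 10.41 in TamR. In both, T24 was the highest library and TamR the lowest, and T0 to T16 lay close together. TamR differed from T0 by -0.94 in HLA-DRA and by -1.32 in HLA-DRB1, neither beyond the lowest parental score by more than the parental range. The means over E2 differed from T0 by 0.11 and 0.35, and without T24 by -0.13 and -0.08, so that T24 alone set their direction.

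TAP1 (ENSG00000168394.13_11, chr6:32812986-32821593, minus strand) shares its bin with TAP2, the other subunit of the peptide pump, and with PSMB8 and PSMB9, interferon-inducible subunits of the proteasome. The bin scored 13.23 at T0, 13.99 at T1, 14.04 at T4, 13.69 at T16, 14.30 at T24 and 12.89 in TamR. All 4 E2 libraries were above T0, by 0.77 on average (percentile 88.2 of all bins), and TamR was 0.34 below T0. By rank TamR did not stand out, at percentile 98.3 with 98 to 98.8 in the parental libraries. These 4 genes cannot be separated at 100 Kb.

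B2M (ENSG00000166710.23_12, chr15:45003556-45011049, plus strand) was in A at a lower score than any MHC gene. It scored 6.01 at T0, 6.15 at T1, 5.71 at T4, 5.63 at T16, 5.57 at T24 and 4.91 in TamR. The parental scores spanned 0.58, and the single TamR library lay 0.66 under the lowest of them. TamR was below all parental libraries in 43.6% of all bins, and by more than their range in 23.0%. TamR differed from T0 by -1.10, at percentile 33.8, and placed the bin at percentile 77.3 of its library against 81.3 to 83.3 in the parental libraries. The mean over E2 was 0.25 below T0. The mean of chromosome 15 was 0.50 lower in TamR than at T0, and the median difference over its bins was -0.82. With the mean of each chromosome subtracted the B2M difference was -0.60.

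IFNB1 (ENSG00000171855.7_7, chr9:21077103-21077941, minus strand), which encodes interferon beta, changed compartment between T0 and TamR, and the other 8 genes did not. Such a change was found in 13.9% of all bins, and from B to A in 7.67%. It scored -0.83 at T0, -1.63 at T1, -1.43 at T4, -1.70 at T16, -2.28 at T24 and 0.43 in TamR. The E2 libraries were all lower than T0, with a mean difference of -0.93 at percentile 7.12 of all bins. TamR was 1.26 above T0 and crossed into A, at percentile 54.7 of its library against 42.7 to 49.4. With the chromosome mean subtracted from each library, IFNB1 was in B in all 6, at -1.14 at T0 and -0.78 in TamR. The TamR score is close to the border, and its distance from the highest parental score was less than the parental range of 1.45.

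IFNA1 (ENSG00000197919.6_6, chr9:21440438-21441315, plus strand), an interferon alpha gene, stayed in B. It scored -4.75 at T0, -4.84 at T1, -4.84 at T4, -4.60 at T16, -5.40 at T24 and -2.13 in TamR. TamR exceeded the highest parental score by more than the parental range of 0.80, as it did in 21.8% of all bins. The difference from T0 was 2.61, at percentile 85.6, and the bin ranked at percentiles 22.7 to 28.5 in the parental libraries and 41 in TamR. With the chromosome mean subtracted the difference was 1.71. The mean over E2 differed from T0 by -0.18, or by -0.01 without T24, which was again the lowest library.

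Across the 9 genes, TamR lay below all 5 parental libraries in 5 (HLA-E, HLA-DRA, HLA-DRB1, TAP1 and B2M), within their range in 2 and above in 2. By rank the counts were 4 below, 4 above and 1 within. Over all scored bins TamR was below all parental libraries in 43.6% and above in 35.0%, and by rank below in 43.1% and above in 36.2%. A TamR score outside the parental range was therefore the usual state of a bin, and the 9 genes were not set apart by it. The 3 genes with all E2 libraries above T0 were HLA-B, HLA-C and TAP1, and IFNB1 alone had all 4 below. These patterns were found in 23.1% and 26.7% of all bins.

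The bins around the MHC genes formed 1 long stretch of A. The class I window (chr6:29400001-32400000, 30 bins) and the class II window (chr6:31400001-33900000, 25 bins) share 10 bins and together cover 45. Of these, 43 were in A and 2 in B in every library, so that 0 changed compartment over E2 or in TamR. Over all bins the share that changed from T0 was 3.16% for T1, 3.05% for T4, 3.80% for T16, 5.17% for T24 and 13.9% for TamR. Those shares include bins near 0, whereas 32 of the 45 MHC bins exceeded the 95th percentile at T0. The largest difference of TamR from T0 in the 2 windows was -3.30, too small to change the sign of such bins. The 0 is thus no sign of unusual stability, and the share among bins of like score was not computed. A count of 0 allows a share of up to 10% for the 30 bins of class I and 12% for the 25 bins of class II, which cover counting error only, and neighbouring bins are not independent. The 2 bins in B, chr6:29400001-29600000, lie at the outer edge beside a group of olfactory receptor genes, and scored -2.84 and -1.96 at T0.

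Most of this stretch ranked near the top of the genome. Between 32 and 34 of the 45 bins exceeded the 95th percentile in each parental library, as did 29 in TamR. The highest T0 score was 16.48, at percentile 99.9, in chr6:33200001-33300000, which holds TAPBP, the tapasin gene that bridges TAP and class I molecules. The class III bins between the class I and class II genes, with TNF, LTA and the complement genes C2, CFB and C4A, scored 14.25 to 15.75 at T0 from chr6:31500001 to 32000000. HLA-B and HLA-C at T0 lay in a dip between this block and the bins before it, and the dip was shallower at T1 and in TamR. The class II genes from HLA-DRA to HLA-DOB lay in a second dip, with the lowest score of the class II window, 9.35 at T0, in the bin of HLA-DQA2, HLA-DQB2 and HLA-DOB.

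**Figure D2:**
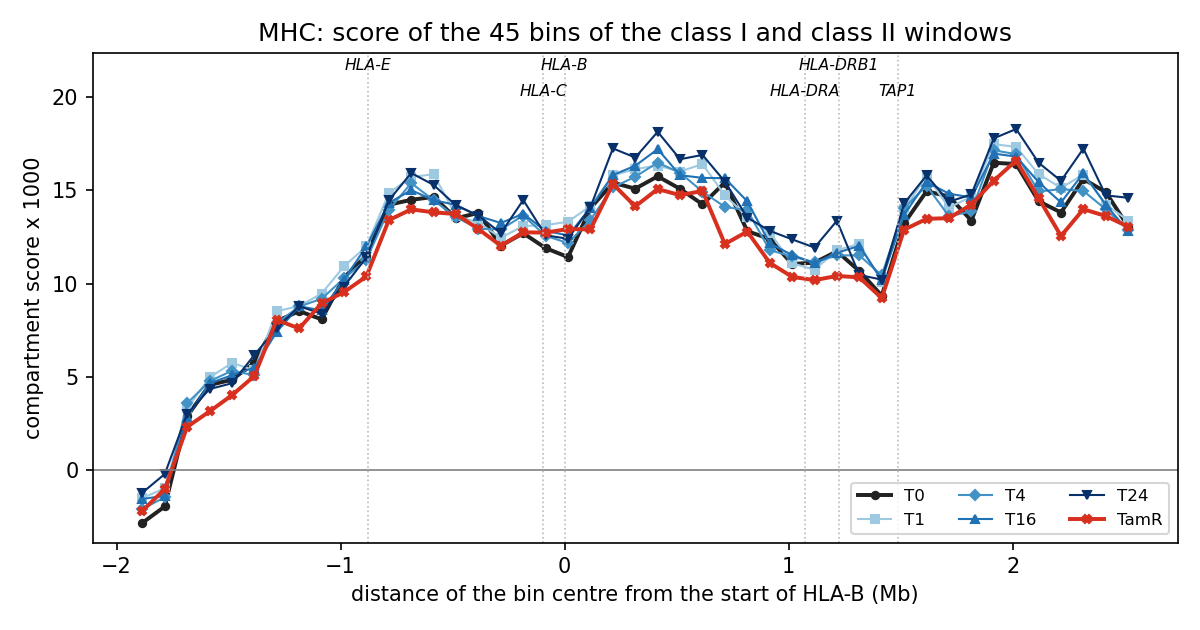
Score of the 45 bins of the class I and class II windows against their distance from the start of HLA-B in Mb, with 1 line per library and dotted lines at the 6 genes. Past the 2 outermost bins on the left the lines run together above 0. TamR is under all 5 parental lines in 31 of the 45 bins, and T24 is the highest parental line in 23.

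On the scale of scores most MHC bins were lower in TamR than in the parental libraries, which ranks did not show. TamR was below all 5 parental libraries in 31 of the 45 bins (68.9%) and above them in 0. The share below among all bins in A in all 5 parental libraries was 49.4%. In 5 of the 45 bins (11.1%) TamR was below by more than the parental range, against 23.0% of all bins, so that most of the gaps were small. The window means were 10.65 at T0 and 10.25 in TamR for class I and 13.80 and 13.11 for class II. The count depends on the scale, since by rank TamR was below in 10 of 30 class I bins and 9 of 25 class II bins, where 20 and 19 were below on the scale of scores. As shares these are 33.3% and 36%, under the 43.1% of all bins by rank. The largest difference, -3.30, lay in chr6:32000001-32100000 with CYP21A2 and TNXB, which scored 15.42 at T0 and 12.12 in TamR.

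From T1 to T24 the class I window averaged 11.29, 10.90, 11.16 and 11.42, all above the 10.65 of T0. The class II window averaged 14.38, 14.01, 14.35 and 14.96, above 13.80. All 4 E2 libraries exceeded T0 in 24 of the 45 bins (53.3%) and were below it in 2 (4.44%), where the shares of all bins were 23.1% and 26.7%. The shares among bins in A, where nearly all MHC bins lie, were not computed for this pattern. T24 was the highest of the parental libraries in 23 bins (51.1%) against 29.4% of all bins, and it was the library with the highest 95th percentile. With the scores mapped by rank onto T0, the difference of the E2 mean from T0 in the gene bins went from 0.75 to 0.40 in class I and from 0.41 to 0.01 in class II. Without T24 these differences were 0.82 and 0.15. The part of this wider spread of T24 in the difference was not tested.

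The window of B2M (chr15:44000001-46100000, 21 bins) sloped from A towards B. At T0 it ran from 12.68 at PDIA3, which helps to load class I molecules, to -5.63 in the last bin. The number of A bins was 19 at T0 and T1, 18 at T4, T16 and T24, and 17 in TamR. From T0 to TamR 2 of 21 bins changed (9.52%, 95% Wilson interval 2.65 to 28.9%, over bins that are not independent), both from A to B, the direction taken by 6.27% of all bins. They were chr15:45700001-45800000, at 0.94 and -0.11, and chr15:45800001-45900000, at 0.53 and -0.49, and the latter was already in B at T4, T16 and T24. Both lie at the foot of the slope, away from B2M, and with the chromosome mean subtracted 0 bins changed.

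TamR was below all parental libraries in 17 of the 21 bins (81%), B2M included, and in 7 (33.3%) by more than their range, with 43.6% and 23.0% over all bins. The window mean was 5.08 at T0, 4.66, 4.67, 4.68 and 4.47 after E2 and 3.48 in TamR. The gap was wider ahead of B2M than at the gene, with differences from T0 of -2.02 to -3.43 in the 7 bins of chr15:44200001-44900000 and -1.10 in the bin of B2M. Past the gene the differences varied, with -2.45 in the next bin and -0.63 in the bin after it. By rank 18 of the 21 bins (85.7%) were below, against 43.1% of all bins. On chromosome 15 52.8% of the bins were below. With the chromosome mean subtracted TamR was below in 12 of the 21 window bins (57.1%). The part of the shift of the chromosome in the count was not tested beyond this subtraction. All E2 libraries were below T0 in 10 bins (47.6%), against 26.7% of all bins.

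**Figure D3:**
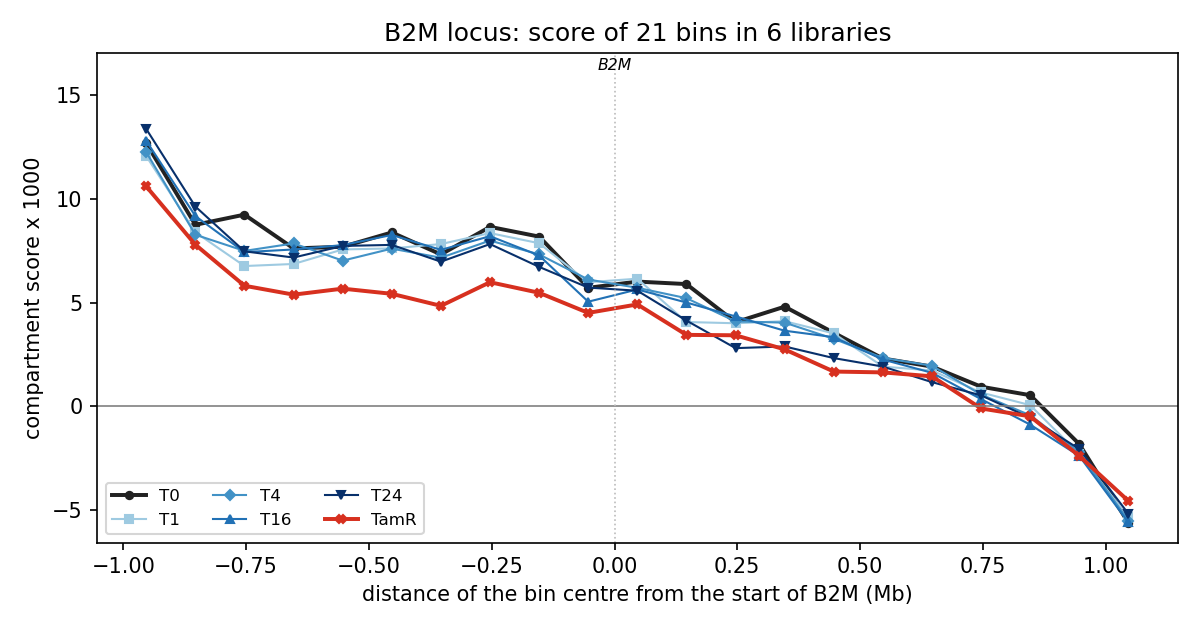
Score of the 21 bins around B2M against their distance from its start in Mb, with 1 line per library. The TamR line lies under the others ahead of B2M and in several bins past it. It comes close to them towards the end of the window, where the scores cross 0 and the 2 bins that changed compartment are found.

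The interferon window (chr9:20000001-22500000, 25 bins) was mostly B in the parental libraries and partly A in TamR. A bins numbered 4 at T0, 1 each in T1 and T4, 0 each in T16 and T24 and 9 in TamR. From T0 to TamR 5 of 25 bins changed (20%, Wilson interval 8.86 to 39.1%), all from B to A, a direction taken by 7.67% of all bins and 12.7% of those on chromosome 9. The 9 A bins of TamR were consecutive, chr9:20200001-21100000, and ended with the bin of IFNB1 and HACD4. The other IFNA genes lie past that end and stayed in B in every library. The A bins of TamR scored at most 1.62, and the mean of chromosome 9 was 0.90 higher in TamR than at T0. The median difference over the bins of that chromosome was 0.14, so its bins did not share the rise evenly. With the chromosome mean subtracted from each library 0 bins of the window changed.

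TamR was above all 5 parental libraries in 18 of the 25 bins (72%) and in 11 by more than their range, where all bins gave 35.0% and 21.8%. By rank the count was also 18. Of the 25 bins 21 were in B in all 5 parental libraries, and TamR was above in 14 of them, against 42.2% of such bins in the genome. The window mean was -2.81 at T0, -2.94, -2.98, -3.33 and -3.64 after E2, and -0.98 in TamR. On chromosome 9 42.2% of the bins were above. With the chromosome mean subtracted from each library TamR was above in 15 of the 25 window bins (60%). The part of the shift of the chromosome in the count was not tested beyond this subtraction.

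The bins with TamR above formed an unbroken run that began outside the window, a stretch noticed after the scores were seen. It covered 25 bins, chr9:19300001-21800000, with 23 protein-coding genes from RPS6 and ACER2 through MLLT3 and FOCAD to IFNE. Its mean score was -3.42 at T0, -3.60, -3.69, -3.75 and -4.17 after E2, and -0.06 in TamR. The differences of TamR from T0 ranged from 0.31 to 8.40 and averaged 3.36. Within the window they were widest at its outer end ahead of the interferon genes, with -7.42 at T0 and -0.47 in TamR in chr9:20000001-20100000.

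The run ended between the interferon genes and the CDKN2A locus. In the next 7 bins, chr9:21800001-22500000, with MTAP, CDKN2A and CDKN2B (inhibitors of the cell cycle kinases, the latter pair) and DMRTA1, TamR was within the parental range in 5 and below it in 2. Their mean was -2.23 at T0 and -2.86 in TamR, a difference of -0.64, where the 18 bins of the run inside the window differed by 2.79. The bin of IFNA1 scored -2.13 in TamR and that of MTAP -2.18, although they stood at -4.75 and -1.23 at T0. These bins and genes were picked out after their values were seen.

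**Figure D4:**
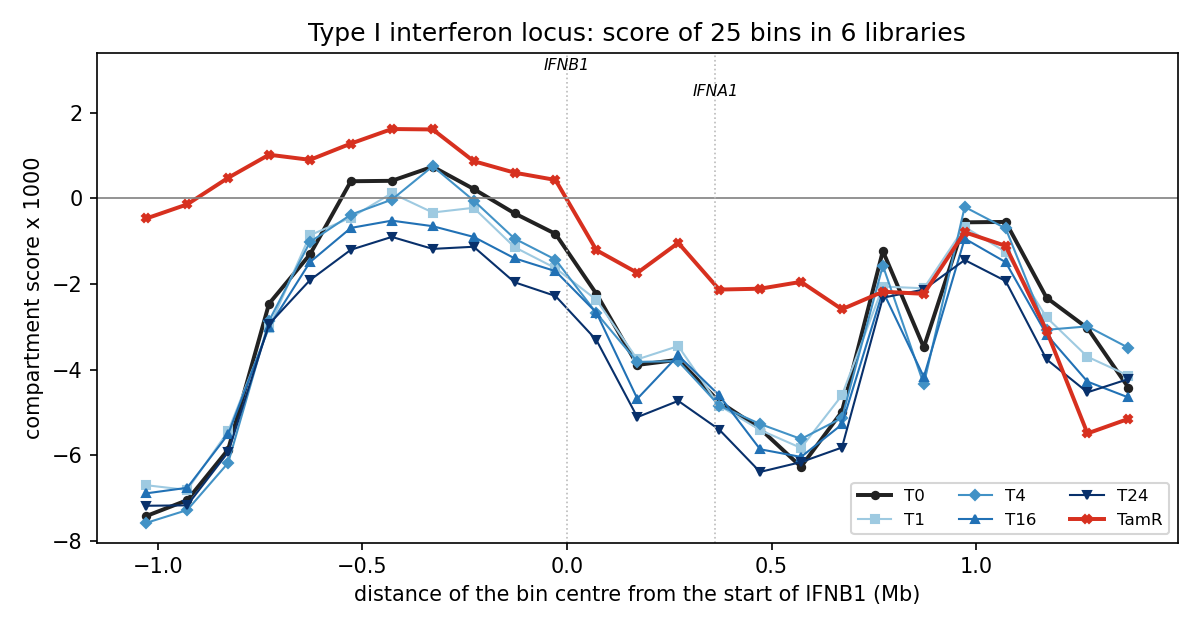
Score of the 25 bins around the type I interferon genes against their distance from the start of IFNB1 in Mb, with 1 line per library and dotted lines at IFNB1 and IFNA1. The red TamR line lies above the parental lines up to the bin before MTAP and among or under them beyond, and it is above 0 in the 9 bins that end with IFNB1.

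Over E2 the interferon window went the other way from the MHC. From T0 the bins that changed numbered 3 for T1, 3 for T4, 4 for T16 and 4 for T24, in a block of 4 A bins, chr9:20500001-20900000, that scored 0.22 to 0.74 at T0. The shares of all bins that changed were 3.16 to 5.17%. All 4 E2 libraries were below T0 in 10 bins (40%) and above it in 1, with 26.7% and 23.1% over all bins. T24 was the lowest parental library in 18 of the 25 bins (72%), against 31.8% of all bins, and in 1 of the 25 bins of class II. T24 had the lowest median of all libraries, and the part of that shift was not tested.

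The windows in A were richer in GC and in genes than the interferon window. The median GC content was 46.4% in the class I window, 49.8% in class II, 42.2% around B2M and 37.7% around the interferon genes, with 39.8% over all bins. Gene starts per bin averaged 4.27, 4.72, 1.48 and 0.96, against 0.662. HindIII sites, where TCC fragments end, numbered 21, 18, 27 and 33 per bin at the median, with 29 over all bins. HLA-B lay in a bin with 13 sites, at percentile 2.16, and TAP1 in one with 19, at percentile 9.36, while the bin of IFNB1 held 34. The part of the number of sites in the scores was not tested. The median step between neighbouring bins at T0 was 0.89 in class I, 1.12 in class II, 1.01 around B2M and 1.07 around the interferon genes, against 0.71 over all bins, so that a difference between libraries of about 1 is of the size of a step between adjacent bins. This step describes variation along the chromosome within a library and does not measure the error of a difference between libraries.

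Of 73 related genes on 6 lists, 8 lie in the bin of one of the 9 genes and 38 lie outside the windows. The background for the counts of listed genes is that of all bins, where TamR was below the parental range in 43.6% (49.4% of those in A) and above it in 35.0%. The 5 other class I genes were in A in all libraries, with TamR below the parental range in 4 of 5 and a median difference from T0 of -0.71, where the median of all bins was -0.27. HLA-G, a class I gene of the placenta, went from 4.56 at T0 to 3.14 in TamR, and MICA, a stress ligand of NK cells, shares the bin of HLA-B and its 1.50. TamR was below in all 12 other class II genes, which fall into 7 bins, with a median of -1.05. Of both lists only CD74 lies outside the windows, so these counts repeat bins already counted there. By rank TamR was below in 10 of the 30 bins of the class I window and 9 of the 25 of class II. HLA-DMA, HLA-DMB and HLA-DOA, which load or regulate class II peptides, share a bin that scored 14.95 at T0 and 13.47 in TamR.

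Of the 13 genes of antigen processing, in 10 bins, 0 changed compartment from T0 to TamR, against 13.9% of all bins. The 10 bins are too few to set this 0 apart from that share. TamR was below the parental range in 10 genes, with a median of -0.97. Of the 8 that lie outside the windows, TamR was below in 5. TAPBPL, a relative of tapasin on chromosome 12, scored 12.25 at T0, 13.41, 13.72, 14.19 and 14.74 after E2 and 8.45 in TamR. PSMB10, the third inducible proteasome subunit, scored 13.66 at T0 and 10.83 in TamR. Both lie outside the MHC, and their differences of -3.80 and -2.83 were larger in size than those of the 9 genes. The 8 regulators of MHC transcription had 3 genes with TamR below and 1 above, with a median of -0.88, neither count over the share of all bins. RFX5, which binds the promoters of class II genes, went from 13.04 to 10.80, and NFYC, a subunit of NF-Y, from 8.29 to 9.90.

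The 15 other interferon genes, in 5 bins, were in B in all 6 libraries, and TamR was above the parental range in 15 and above it by more than that range in 12, where all bins gave 35.0% and 21.8%. Among bins in B in all 5 parental libraries TamR was above in 42.2%. The median difference of the 15 genes from T0 was 2.15. The bin of IFNA2, IFNA5, IFNA6 and IFNA13 scored -3.77 at T0 and -1.04 in TamR. IFNK, the interferon of keratinocytes, lies several Mb away on the same chromosome and scored -5.23 at T0 and -1.08 in TamR. Because 14 of the 15 genes lie in 4 adjacent bins of the window, they are not separate observations.

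The 20 genes of interferon sensing and response lie outside the windows, and their gene starts fall in separate bins. Only the gene-start bin was read, whereas JAK1 (chr1:65298906-65533437) and some other genes extend over more than 1 bin. TamR was below the parental range in 10 and above in 4, with a median difference of -0.49. These shares, 50% and 20%, are near the 43.6% and under the 35.0% of all bins. The 4 above were IFNAR1 and IFNAR2, the chains of the type I interferon receptor, the RNA sensor RIGI and the antiviral GTPase MX1. JAK1, the kinase bound to that receptor, changed compartment and the other 19 did not, from 1.31 at T0, 1.33 at T1, 1.12 at T4 and 1.21 at T16 to -0.17 at T24 and -0.81 in TamR, where 13.9% of all bins changed from T0 to TamR. Since T24 had crossed as well, the change was not limited to TamR.

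**Figure D5:**
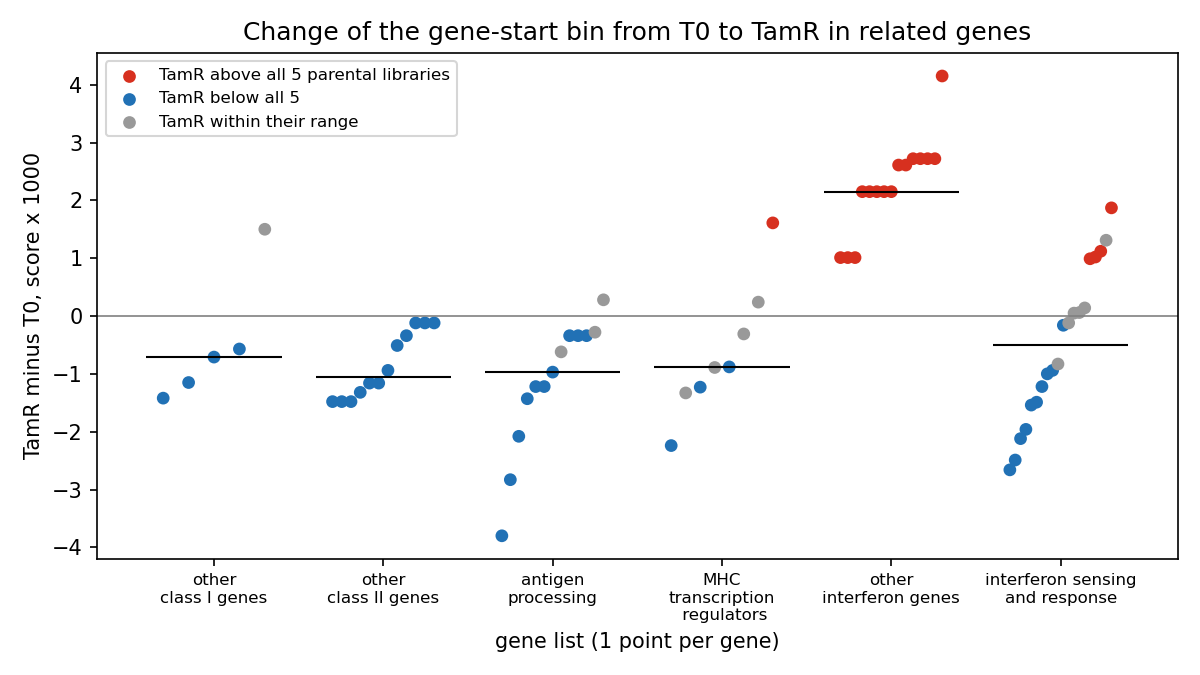
Difference of TamR from T0 (score multiplied by 1000) in the gene-start bin of 73 related genes on 6 lists, with 1 point per gene, coloured by the place of TamR relative to the 5 parental libraries, and a bar at the median of each list. The 15 other interferon genes are all red and above 0, with a median of 2.15, and the medians of the other 5 lists lie between -1.05 and -0.49.

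The protein-coding genes with the most similar profiles over the 6 libraries were found by the root mean square distance from the mean profile of each locus. Nearest to the class I genes were GAS2L1, RASL10A and AP1B1, which share a bin of chromosome 22 at a distance of 0.24. Nearest to the class II genes was ASS1 at 0.18, and nearest to B2M was ZNF322 at 0.17. Nearest to the mean of the 2 interferon genes was KCNS3 at 0.17, with scores of -2.82 at T0 and -0.99 in TamR. KCNS3 thus lay between IFNB1 (-0.83 and 0.43) and IFNA1 (-4.75 and -2.13) and close to neither. ZNF322, ZKSCAN4 and NKAPL, listed as the 3 genes most like B2M, lie on chromosome 6 ahead of the MHC. ZKSCAN4 and NKAPL share their bin and the distance of 0.19 with other genes, among them ZSCAN26 and PGBD1, so their places are arbitrary within that tie. A likeness of this kind over 6 libraries is a description of scores.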

How the data were processed

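The data were 6 tables, 1 per TCC library of T47D cells, in hg19. Per the study's methods the authors aligned reads iteratively with bowtie2, filtered fragments and built contact matrices of 100 Kb bins with HiCLib. They removed low-coverage bins, truncated the highest interchromosomal counts, applied iterative correction and took the first eigenvector of the contacts between chromosomes. The deposited score is that eigenvector, and a 0 marks a bin without a value (2404 to 2422 per library). No contact counts were used, so no depth or counting error can be given for a score.

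Members were located by symbol in GENCODE (GRCh37 coordinates). The numbers of bins fit the GRCh37 lengths of all 23 chromosomes. Bins with a 0 in any library were left out, the sign was used as deposited with 0 as the border, and the scores were multiplied by 1000. Percentiles are among the 27898 bins scored in all 6 libraries. With 1 library per condition no test was made. The members and gene lists were chosen with earlier results of these data known. By the rule for named genes, all 9 members are named; from each of the 6 lists up to 6 genes that changed compartment from T0 to TamR, or otherwise the 2 with the largest absolute difference; and 3 genes most like each locus. Genes named beyond the rule, such as the 4 with TamR above and those of single bins, were picked after their values were seen. RIGI was listed under an older symbol. Alternatives were other borders, scalings, bin sizes, windows and references. Python 3.11.15, numpy 2.4.6, pandas 2.3.3, scipy 1.17.1 and matplotlib 3.10.9 were used, and the counting was tested on simulated scores with planted changes.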

Additional observations from a re-analysis of the deposited data

How the results depend on the processing

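Of 173 alternative values of 34 results, 148 kept their direction and stayed within the spread of the parental libraries or, for shares of bins, within the interval of the reported share and 1.5 times its size. Some of the 148 could not have differed. Every window bin had a score, so keeping bins with a 0 changed nothing. Each gene lay in 1 bin, so gene-start bins were the same bins. The SD was 5.98 in every library, so dividing by it left values almost unchanged. The 148 is therefore no measure of stability. The difference between TamR and T0 in the class I gene bins, 0.41, turned to -0.07 with 500 Kb bins and to -0.15 with the median of the parental libraries in place of T0. Without T24, the E2 differences of HLA-DRA and HLA-DRB1 turned to -0.13 and -0.08. The share of bins with TamR below the parental range moved from 66.7 to 33.3% in class I and from 76 to 36% in class II when the scores were mapped by rank onto T0, and around B2M from 81 to 57.1% with the chromosome mean subtracted. The share of changed bins in the interferon window, 20%, was 0% with the chromosome mean subtracted and 36% against the parental median, and 2 of 15 bins changed with 5 bins on either side. Around B2M that share, 9.52%, was 0% with the chromosome mean subtracted, with 5 bins on either side and with 500 Kb bins, 4.88% with 20 bins on either side, and 4.76% with the median of each library as the border or against the parental median. The B2M difference of -1.10 was -1.39 with the median border, -0.60 with the chromosome mean subtracted, -1.62 with 500 Kb bins and -0.80 against the parental median. The interferon difference of 1.94 was 1.03 with the chromosome mean subtracted and 2.39 against the parental median. The B2M difference over E2, -0.25, was -0.67 with 500 Kb bins. The causes were not tested.

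The other differences over loci kept their direction, with ranges of -1.16 to -0.56 in class II for TamR, and over E2 of 0.40 to 0.86 in class I, 0.01 to 0.51 in class II and -0.62 to -0.39 for the interferon genes, including each E2 library left out. All alternatives for single genes, and those for the shares with TamR outside the parental range, were chosen after seeing the data. No paired analysis was possible because there is a single library for every condition. The unknown depth of the libraries limits the reading of every difference, most of all the small ones.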
